A study of Mus musculus with 32 samples.

Results

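RNA-seq libraries of RGd2 mouse embryonic stem cells kept in 2i for 5 passages (2i-p5, 3 libraries) were compared with libraries of RGd2 cells exposed to 2i for 48 h (2i, 3 libraries), which makes 6 of the 32 libraries in the series. The libraries were chosen by their labels: those numbered 1, 2 and 3 for 2i-p5 and those numbered 31, 32 and 33 for 2i. RGd2 cells carry the Rex1-GFPd2 reporter, a destabilised green fluorescent protein expressed from Zfp42 (Rex1), and no targeted gene was deleted in either group. By the labels, each group holds 2 libraries of the parental line and 1 library of a clonal line derived from it (library 33 and library 3). The 48 h cells had been expanded in CHIRON with LIF before 2i. The study's methods name that as the routine medium of all lines, but do not spell out the history of the 2i-p5 cells. A figure legend of the study says that samples with this history carry a mark, but its text does not name them. The groups may thus differ in earlier medium as well as in the time in 2i. The sets are also numbered apart and may be separate batches. Passage number, earlier medium and batch cannot be told apart here.

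The 2i medium combines PD0325901, which blocks the kinase MEK upstream of ERK, with CHIR99021, which blocks the kinase GSK3 and so stabilises beta-catenin. It holds mouse embryonic stem cells in the naive state of the early epiblast, with high Nanog, Esrrb, Klf2 and Zfp42. Naive cells in 2i are known for low ERK target expression and for low DNA methylation, which is set by Dnmt3a, Dnmt3b and their cofactor Dnmt3l and copied at replication by Dnmt1 with Uhrf1.

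The libraries held between 5986857 and 37042477 counts on genes. Library 33 was the shallowest and stood apart: the chi-square per gene was 44.33 and 43.28 against libraries 31 and 32, whereas libraries 31 and 32 gave 8.433 and the 2i-p5 libraries between 3.391 and 6.586. Levels are given as FPKM, which divides a count by the gene's length and by the library's total. The labelled identity held, as all 10 naive markers reached an FPKM of 1, and their summed level was between 1294 and 1491 FPKM in 2i and between 1231 and 1288 in 2i-p5. None of 8 primitive endoderm markers reached that level, and their sum was between 0.706 and 2.56 FPKM in 2i and between 0.649 and 1.24 in 2i-p5. The highest sum was that of library 33. Gata6, Gata4, Sox17, Sox7, Pdgfra and Dab2 were higher there than in libraries 31 and 32, while Foxa2 and Hnf4a had 0 counts there. Gata6 was at 0.0423, 0.00868 and 0.837 FPKM in libraries 31, 32 and 33, from 5, 1 and 16 counts. The sums were 6.76 to 10.3 against 4.34 to 6.22 FPKM for 6 trophectoderm markers, 6.29 to 6.87 against 6.62 to 8.62 for 8 mesendoderm and neural markers, and 2.09 to 2.82 against 1.68 to 2.76 for 11 fibroblast markers. Few markers made up these sums. By group mean, only Cdx2 and Eomes of the trophectoderm set, T of the mesendoderm and neural set and Pdgfrb of the fibroblast set reached an FPKM of 1. T was at 5.95, 4.98 and 3.25 FPKM in 2i and at 7.00, 5.24 and 5.19 FPKM in 2i-p5. In all 6 libraries, 1 trophectoderm and 2 fibroblast markers had 0 counts. Their part in the results below was not tested.

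The count of changed genes depended on how the libraries were scaled. On the spike-in scale, which sets the RNA molecules added to each sample equal, 334 of 11564 genes with an FPKM of at least 1 in either group were higher in 2i-p5 (2.89%) and 5706 were lower (49.3%), by edgeR's quasi-likelihood test at an adjusted p under 0.05. Without library 31 the lower count was 2917, and a model of the 6 libraries alone gave 187 higher and 2130 lower. On the TMM scale, which assumes that most genes do not differ, 1498 were higher (12.95%) and 1449 were lower (12.5%). The median log2 difference of all genes was -0.352 on the spike-in scale and -0.0123 on the TMM scale, a shift of 0.34. The share of counts on spike-ins was 0.991%, 1.19% and 1.39% in 2i and 1.52%, 1.40% and 1.48% in 2i-p5, so the groups did not overlap, and the difference of 0.275 percentage points had an exact two-sided permutation p of 0.1, the smallest that 3 against 3 libraries allow. The log2 ratio of the spike-in factor to the TMM factor ran from -0.352 to 0.028 among the 2i libraries and from 0.131 to 0.221 among the 2i-p5 libraries. Single spike-ins differed between the groups with an SD of 0.34 in log2 (52 spike-ins). Fewer cells, less RNA per cell and the amount of spike-in added cannot be told apart in such bulk samples, and the origin of the shift was not tested. Below, a gene is said to have risen or fallen only if it was called in the same direction on both scales, which held for 334 genes higher (2.89%) and 1449 lower (12.5%) in 2i-p5, and for 177 and 467 in the model of the 6 libraries. The counts of list members below are to be read beside those shares of all genes.

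**Figure D1:**
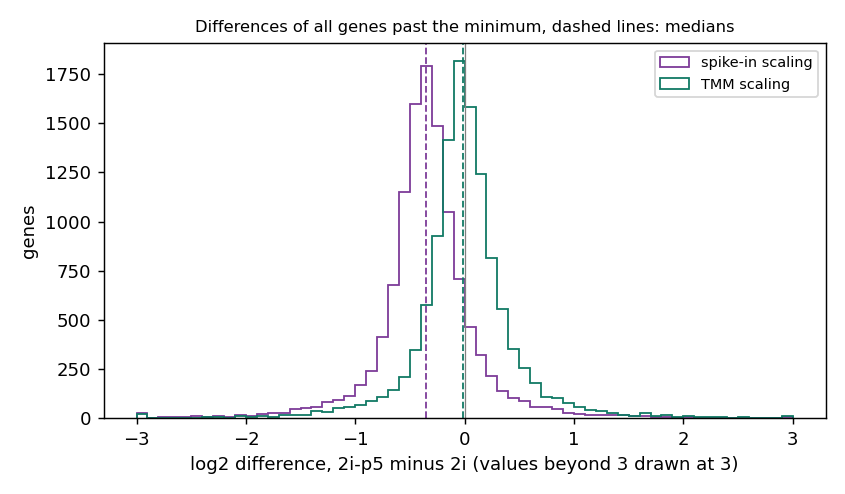
Histogram of the log2 difference (2i-p5 minus 2i) of the 11564 genes past the FPKM minimum, with the number of genes on the y axis, under the spike-in and the TMM scaling. The dashed medians lie at -0.352 and -0.0123.

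All 334 genes higher on the spike-in scale were also higher by TMM, and all 1449 lower by TMM were also lower on the spike-in scale. The other scale thus removed no call and adds no support. On the spike-in scale a rise had to overcome the shift, so the genes that rose needed a larger TMM difference than those that fell. Counts of rises and falls therefore rest on rules of unlike strictness. The 334 genes that rose had a median log2 difference of 1.09 on the TMM scale, 194 of them changed at least 2-fold, and in 296 the libraries of the groups did not overlap on either scale. The 1449 genes that fell had a median of -0.42, 187 changed at least 2-fold and 1204 did not overlap, where 3.48% of all genes were without overlap upward and 15.99% downward. Without library 33, 284 of the 334 and 1191 of the 1449 were still called on both scales.

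Wnt3, a Wnt ligand of the epiblast, was at 0.290, 0.369 and 0.326 FPKM in 2i and at 1.86, 1.71 and 2.78 FPKM in 2i-p5 (spike-in log2 difference 2.35, SE 0.31, edgeR adjusted p = 2.92e-07), and the groups lay far apart. Prdm1, a transcriptional repressor of the germ cell lineage, averaged 0.595 ± 0.0858 FPKM in 2i and 3.70 ± 0.433 in 2i-p5 (SD, n = 3), and Hey1, a repressor induced by Notch, 0.610 ± 0.048 and 2.55 ± 0.488 FPKM. Naaa, a lysosomal amidase, rose from 2.75 FPKM in 2i to 11.03 in 2i-p5. Arhgef28, Pdzk1, Rbm47, Oplah, Lrrc15 and Egln3 were also among the genes with the largest rise, with spike-in log2 differences from 1.57 to 2.46.

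Stra8, the gene that responds to retinoic acid at entry into meiosis, had the largest fall of the genes named by the rule. It was at 3.95, 3.70 and 6.21 FPKM in 2i and at 0.240, 0.152 and 0.325 FPKM in 2i-p5 (spike-in log2 difference -4.46, SE 0.32, edgeR adjusted p = 6.69e-13), and every 2i-p5 library lay far below every 2i library. Mras, a Ras-related GTPase, averaged 7.90 ± 0.325 FPKM in 2i and 1.42 ± 0.191 in 2i-p5 (SD, n = 3). Xlr3c also fell, from 2.69 to 0.285 FPKM, but belongs to a family of near-identical copies on the X chromosome between which uniquely matched reads can be split unevenly. The neurofilament gene Nefl and the calcium-binding gene Calb2 fell too, and in both library 33 was the lowest of the 2i libraries, at 3.81 FPKM for Nefl and 1.73 FPKM for Calb2. Efhc2, Mir124a-1hg, Pcolce, Sema5b, Tgm1, Ccnd2 and Dcaf12l1 were the others of the 12, with spike-in log2 differences from -3.36 to -2.29.

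**Figure D2:**
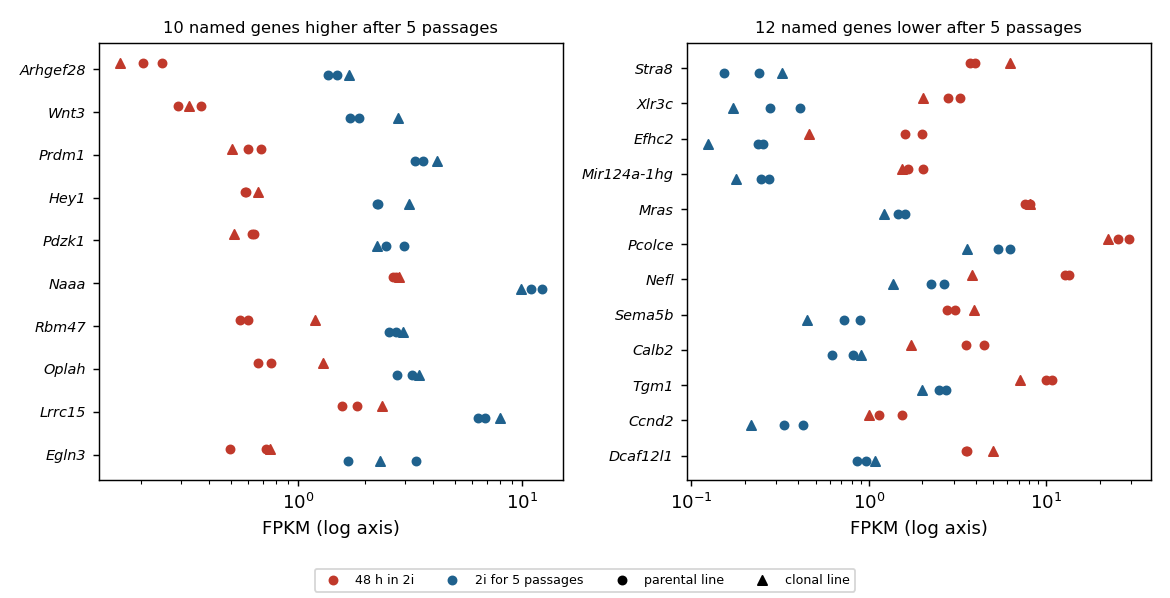
FPKM on a log axis in each of the 6 libraries for 10 of the genes with the largest rise (left) and the 12 with the largest fall (right), with circles for the parental line and triangles for the clonal line. The groups do not overlap in any of these genes, as the rule for choosing them required.

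Among 18 naive pluripotency genes, 1 rose and 6 fell on both scales. Nanog, a core factor of the naive network, was at 391, 410 and 379 FPKM in 2i and at 332, 336 and 316 FPKM in 2i-p5 (spike-in log2 difference -0.57, TMM -0.24, edgeR adjusted p = 4.93e-05 and 0.00905). Tbx3, Fgf4, Nr0b1, Klf4 and Zfp57 fell by 0.22 to 0.48 on the log2 TMM scale. These differences were small beside those of the leading genes, and the list's median was -0.173 relative to all genes on the TMM scale. Sox15 rose, with a TMM log2 difference of 0.95. The naive marker Dppa3 was also higher, at 4.63, 5.00 and 1.12 FPKM in 2i and at 8.84, 8.52 and 7.32 FPKM in 2i-p5. It was not called on both scales, and library 33 held 6 counts of it. Zfp42, the reporter locus, averaged 179 FPKM in 2i and 161 in 2i-p5, and was called lower on the spike-in scale (log2 difference -0.47) but not on the TMM scale (-0.14, edgeR adjusted p = 0.195). Of 12 general pluripotency genes, 4 fell and none rose on both scales, with Sall1 the furthest at a TMM log2 difference of -0.91. The median of these 12 relative to all genes was -0.102 on the spike-in scale, and 0.0298 in the parental line only. Pou5f1 and Sox2, which pluripotent cells share, passed the test on neither scale. In both, the 2i-p5 libraries lay above libraries 31 and 32 and below library 33. Sox2 was at 111, 107 and 169 FPKM in 2i and at 143, 133 and 143 FPKM in 2i-p5. Pou5f1 was at 327, 316 and 410 FPKM in 2i and at 381, 367 and 363 FPKM in 2i-p5.

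Of 16 Nodal and BMP signalling genes past the minimum, 3 rose, Lefty2 and Tdgf1 among them, and 1 fell (Gdf3, a ligand of the same family) on both scales, beside 2.89% rising and 12.5% falling among all genes. Lefty2, a secreted Nodal antagonist that Nodal itself induces, was at 93.3, 93.1 and 58.9 FPKM in 2i and at 271, 253 and 257 FPKM in 2i-p5 (spike-in log2 difference 1.32, SE 0.17, edgeR adjusted p = 2.44e-07). Tdgf1, the Nodal co-receptor, averaged 30.7 ± 1.0 FPKM in 2i and 64.8 ± 5.1 in 2i-p5 (SD, n = 3). The ligand Nodal was at 44.3, 42.4 and 44.9 FPKM in 2i and at 52.7, 52.7 and 48.9 FPKM in 2i-p5, which was called on the TMM scale (log2 difference 0.25) and not on the spike-in scale (-0.08).

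ERK-responsive genes did not move one way. Of 16 members past the minimum, 2 rose and 5 fell on both scales. Dusp4, a phosphatase that removes phosphate from ERK, was at 1.15, 1.34 and 0.793 FPKM in 2i and at 4.46, 3.19 and 5.03 FPKM in 2i-p5 (spike-in log2 difference 1.48, SE 0.19, edgeR adjusted p = 2.74e-07), and Spry2, another feedback inhibitor, rose by a TMM log2 difference of 0.94. Etv4, an ETS factor induced by ERK, was at 1.17, 1.36 and 1.40 FPKM in 2i and at 0.279, 0.405 and 0.377 FPKM in 2i-p5 (spike-in log2 difference -2.14, SE 0.21, edgeR adjusted p = 8.49e-10). Its relative Etv1 fell by 1.47 on the log2 TMM scale and Myc, which LIF and ERK signalling both induce, by 1.49. Etv5, the third member of the ETS subfamily, was called lower on the spike-in scale (-0.50) and not on the TMM scale (-0.18, edgeR adjusted p = 0.477). Spred2 and Ccnd1 also fell.

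Among beta-catenin responsive genes, Wnt3 rose while Cdx1, Cdx2, Notum and Nkx1-2 fell, of 12 past the minimum. Cdx1, a caudal homeobox factor, was at 18.3, 18.8 and 29.6 FPKM in 2i and at 8.52, 7.53 and 7.74 FPKM in 2i-p5. Tcf7l1, which represses targets of beta-catenin, fell from 10.4 to 5.74 FPKM. In the LIF-STAT3 list, Jak3 rose and 5 of 15 members fell: Myc, Socs1, Gbx2, Lifr and Klf4.

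The de novo DNA methyltransferases fell. Dnmt3b was at 34.2, 32.2 and 38.7 FPKM in 2i and at 21.7, 20.8 and 19.9 FPKM in 2i-p5 (spike-in log2 difference -1.05, SE 0.13, edgeR adjusted p = 6.75e-08). Dnmt3a, Uhrf1 and the methylcytosine oxidase Tet2 fell with it, by 0.51, 0.49 and 0.72 on the log2 TMM scale. The cofactor Dnmt3l went the other way, at 15.72, 15.03 and 15.26 FPKM in 2i and at 35.4, 34.6 and 20.7 FPKM in 2i-p5, where the clonal library was the lowest. In all, 6 of 13 members fell and 1 rose. Of 16 germline genes known to respond to loss of methylation, 6 fell, Rpl10l the furthest, and Sycp3 rose. Rpl10l is a close copy of the ribosomal gene Rpl10, so its value is uncertain.

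**Figure D3:**
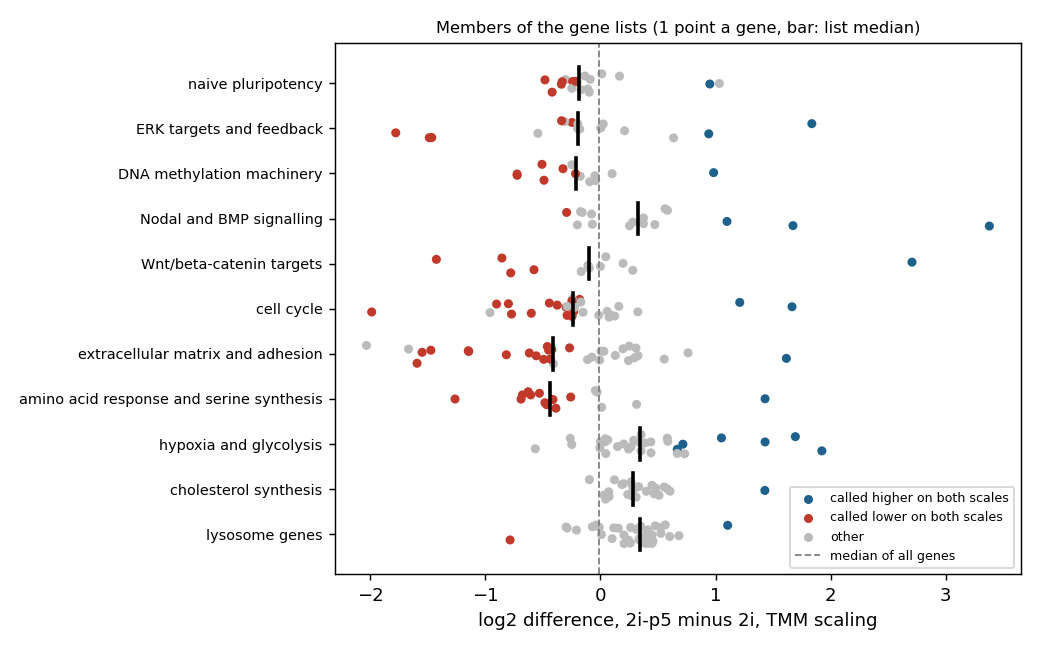
TMM log2 difference (2i-p5 minus 2i) of the members of 11 gene lists, 1 point a gene, with a bar at each list's median and a dashed line at the median of all genes (-0.0123). Nodal, hypoxia, cholesterol and lysosome genes lie mostly to the right of that line and matrix and amino acid response genes to its left.

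Many matrix, cell cycle and amino acid response genes fell. Of 33 extracellular matrix and adhesion genes 15 fell and 1 rose, of 29 cell cycle genes 14 fell and 2 rose, and of 16 amino acid response and serine synthesis genes 11 fell and 1 rose, beside 12.5% falling and 2.89% rising among all genes. The integrin Itga5 averaged 10.99 ± 0.926 FPKM in 2i and 3.68 ± 0.761 in 2i-p5, and the secreted matrix protein Tgfbi 5.75 ± 0.316 and 1.92 ± 0.504 (SD, n = 3), while the integrin Itgb3 rose. Among cyclins, Ccnd2, Ccnd3 and Ccne1 fell, with TMM log2 differences of -1.99, -0.80 and -0.77. The cell cycle inhibitors Cdkn2a and Cdkn2b rose: Cdkn2a was at 11.2, 11.3 and 13.4 FPKM in 2i and at 27.3, 26.1 and 27.1 FPKM in 2i-p5.

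Chac1, which degrades glutathione and is induced by the amino acid response factor ATF4, was at 9.40, 9.23 and 8.47 FPKM in 2i and at 4.29, 3.14 and 3.99 FPKM in 2i-p5 (spike-in log2 difference -1.61, SE 0.16, edgeR adjusted p = 8.49e-10). Phgdh and Psph, enzymes of serine synthesis, fell by 0.69 and 0.61 on the log2 TMM scale. Asns, the asparagine synthetase, averaged 259 FPKM in 2i and 256.5 in 2i-p5 and was called lower on the spike-in scale (-0.32) and not on the TMM scale (0.01, edgeR adjusted p = 0.945). The DNA element that ATF4 binds with a C/EBP partner reads TGATGNAA. In the 250 bases before the start of transcription in RefSeq (GRCm38.p6), either strand searched, 3 of 16 promoters of 14 matched list members held it, against 3.45% of 32851 promoters of all genes. That is 18.8% for the list, and the members that fell on both scales held it in 2 of 11 promoters (18.2%). The list was made of amino acid response genes, so nothing about this comparison is read from its share. A match is a description of the letters and no evidence of binding. The promoters of those 3 genes are printed 5′ to 3′ on the gene's strand, with the element or its reverse complement in capitals: Chac1 at chr2:119350992-119351241 on the plus strand, Nupr1 at chr7:126625471-126625720 on the minus strand and Asns at chr6:7693210-7693459 on the minus strand.
Chac1: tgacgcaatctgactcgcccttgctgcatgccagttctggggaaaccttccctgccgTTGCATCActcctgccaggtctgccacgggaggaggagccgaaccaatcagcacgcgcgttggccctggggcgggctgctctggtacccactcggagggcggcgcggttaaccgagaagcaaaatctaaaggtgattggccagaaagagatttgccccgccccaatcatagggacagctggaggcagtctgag
Nupr1: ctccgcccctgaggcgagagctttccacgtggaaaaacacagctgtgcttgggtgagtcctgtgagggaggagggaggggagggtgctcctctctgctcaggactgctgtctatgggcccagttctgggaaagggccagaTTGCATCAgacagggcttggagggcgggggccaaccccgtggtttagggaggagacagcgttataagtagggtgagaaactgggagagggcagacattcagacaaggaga
Asns: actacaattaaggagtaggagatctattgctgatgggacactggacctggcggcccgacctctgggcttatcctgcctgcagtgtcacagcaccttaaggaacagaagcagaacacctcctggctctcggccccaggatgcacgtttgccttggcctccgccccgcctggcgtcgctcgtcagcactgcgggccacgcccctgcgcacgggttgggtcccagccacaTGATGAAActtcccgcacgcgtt

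Relative to all genes, metabolic lists stood higher in 2i-p5 without most members passing on both scales. The medians relative to all genes on the TMM scale were 0.355 for 30 hypoxia and glycolysis genes, 0.293 for 24 cholesterol synthesis genes, 0.356 for 37 lysosome genes, 0.453 for 84 cytosolic ribosomal protein genes and 0.179 for 91 nuclear oxidative phosphorylation genes. On the spike-in scale the list medians themselves were near 0, at -0.0044, -0.0493, -0.0037, 0.1001 and -0.172 in the same order, so their direction is not fixed. On both scales 6, 1, 1, 13 and 6 members rose and 0, 0, 1, 2 and 2 fell, beside 2.89% and 12.5% of all genes, so the rises of cholesterol and lysosome genes were near the share of all genes. Aldoc, a glycolytic aldolase, was at 3.22, 3.14 and 3.43 FPKM in 2i and at 11.7, 10.4 and 9.19 FPKM in 2i-p5. Bnip3, a mitophagy receptor induced by hypoxia, rose from 20.4 to 41.7 FPKM. Hexa, a lysosomal hexosaminidase, rose from 24.1 to 50.6 FPKM.

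The same genes were read in the other RGd2 cultures, which were 2 passages in CHIRON (CH-p2) and 16 h or 72 h without inhibitors (N-16h, N-72h). The labels give 3 libraries for N-16h. The study's methods list fewer for that culture, and this conflict was not resolved. Lefty2 was highest in 2i-p5, at 260 FPKM, and was 47.9 in CH-p2 and 5.67 in N-16h. Dusp4 in 2i-p5 (4.22 FPKM) was far below CH-p2 (37.6), and Etv4 in 2i (1.31) was far below N-16h (34.4). Hey1 was at 2.55, 0.871 and 0.970 FPKM in 2i-p5, CH-p2 and N-72h and at 0.610 and 0.104 in 2i and N-16h.

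**Figure D4:**
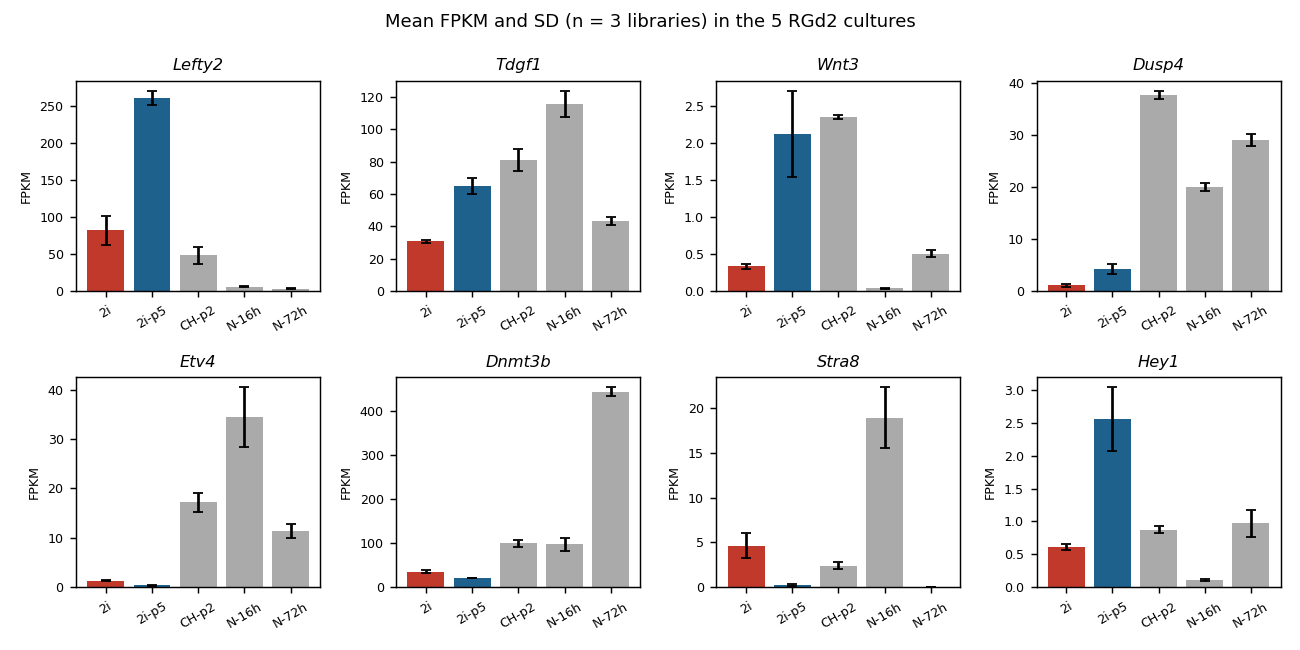
Mean FPKM with SD (n = 3 libraries) of 8 genes in the 5 RGd2 cultures, with 2i in red, 2i-p5 in blue and the others in grey. Lefty2 peaks in 2i-p5 at 260 FPKM, and Hey1 is higher in 2i-p5, CH-p2 and N-72h than in 2i and N-16h.

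That order of Hey1 follows the library numbers, as 2i-p5, CH-p2 and N-72h hold numbers 1 to 9 and 2i and N-16h hold 22 to 33. On the TMM scale, 3.56% of all 11564 genes were higher in all 9 low-numbered RGd2 libraries than in all 6 high-numbered ones. The share lower in all 9 was 3.93%. Of the 334 genes that rose, 113 were higher in this way (33.8%), and of the 1449 that fell, 336 were lower (23.2%). The 6 libraries that chose these genes are among the 15, so part of the pattern was fixed by the choice and nothing is read from these shares. Wnt3, Hey1 and Pdzk1 were among the leading genes with this pattern, as were Stra8, Mir124a-1hg, Mras, Pcolce, Sema5b and Tgm1 among those that fell, while Prdm1 and Naaa were not. Counts from the Y chromosome, which the parental cells carry and the clonal line nearly lacks, showed the same split in the parental line: 188 to 202 CPM (counts scaled to equal library totals) in 6 low-numbered libraries and 250 to 265 CPM in 4 high-numbered ones. Numbering and culture history cannot be told apart.

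The lines were also compared. The response differed between the clonal and the parental line in 1492 genes on the spike-in scale (12.9%) and in 1607 on the TMM scale (13.9%) by edgeR's interaction test, which rests on 1 clonal library a group, the shallow library 33 in 2i. The spike-in count depended on single parental libraries, at 475 without library 31, 2686 without library 32 and 473 without library 1.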

How the data were processed

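Ribosomal RNA was removed and ERCC spike-ins were added before strand-specific library preparation. The deposited values are raw counts of 51826 genes and 92 spike-ins, which the authors obtained with Trim Galore, TopHat2 on GRCm38/mm10 and featureCounts (unique primary matches). FPKM values were computed here from the deposited counts and gene lengths. Genes without a symbol numbered 193 and held 0.0265% of counts.

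Libraries were scaled by median-of-ratios size factors on 52 spike-ins. All 32 libraries entered 1 edgeR 4.0.16 model (glmQLFit, glmQLFTest, R 4.3.3) of the 19037 genes that passed the count filter, two-sided with Benjamini-Hochberg adjustment. Calls required an adjusted p under 0.05 and an FPKM of at least 1 in either group. Alternatives included TMM, DESeq2 1.42.0, leaving out each library and thinning to 5986857 counts. The steps were tested on simulated data.

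Named were the 12 genes per direction with the largest change (called and without overlap on both scales, at least 100 counts), up to 5 members per list and direction called on the spike-in scale, and 6 genes the study turns on, 146 in all. Some genes the rule names are not reported here. Other genes named as members were picked after their values were seen. Members and gene lists were chosen with earlier results of these data known. The labels do not say whether libraries are separate cultures. A figure legend of the study describes biological replicates plated in parallel for RGd2 cells in 2i, and does not cover 2i-p5. The p-values of the main model rest on the spread between replicate libraries across all 32, not on the 6 compared alone. That spread may be technical. The model of the 6 libraries gave 2130 genes lower on the spike-in scale, against 5706.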

Additional observations from a re-analysis of the deposited data

Results flagged for a closer look

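In 6 named genes the response to 5 passages differed between the RGd2 lines by edgeR's interaction test on both scales. The clonal response minus the parental response on the log2 spike-in scale was -1.339 for Klf2 (adjusted p = 0.00365), -1.924 for Foxd3 (0.0062), 1.357 for Dazl (0.00383), 0.7078 for Trp53inp1 (0.0222), -0.7872 for Btg2 (0.0428) and 0.7076 for Bmpr1a (0.0225), each from edgeR. In each gene the shallow clonal library 33 was the highest or the lowest of the 2i libraries and lay farther from libraries 31 and 32 than those lay from each other. Klf2 was at 33.8 and 37.0 FPKM in the parental 2i libraries and at 111 FPKM in library 33, against 44.3, 46.9 and 45.7 FPKM in 2i-p5. Foxd3 was at 3.81, 4.29 and 10.8 FPKM in 2i and at 3.95, 4.45 and 2.402 FPKM in 2i-p5. Dazl was at 7.63, 8.15 and 4.03 FPKM in 2i, and Btg2 at 5.47, 6.77 and 12.7 FPKM. With 1 clonal library a group, the spread came from the other groups, and whether library 33 differs by line or by its preparation was not tested.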

How the results depend on the processing

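From 334 genes higher and 5706 lower in 2i-p5, TMM gave 1498 and 1449, DESeq2 size factors on genes 1558 and 1457, a model of the 6 libraries 187 and 2130, and a fold of at least 1.5 gave 217 and 1945; without the FPKM minimum 541 were higher. The cause of these changes was not tested, apart from the smaller sample and the stricter or looser rule. Leaving out a library gave 244 to 416 higher and 2917 (without library 31) to 7185 (without library 33) lower. The genes whose response differed between lines numbered 473 to 2686 when a parental library was left out, from 1492: 475 without library 31, 2686 without library 32 and 473 without library 1. Leaving out a clonal library gives no such test. The difference in spike-in share ranged from 0.174 to 0.375 percentage points. With the clonal line as a replicate block, 362 were higher and 5496 lower; the library numbers are not shared between the groups and pair nothing. Genes called lower on the spike-in scale reversed to small differences in log2: Gtse1 0.027 (TMM) and 0.018 (DESeq2 size factors on genes), Zmat3 0.043 and 0.039, Aen 0.091 and 0.088, Sc5d 0.031 and 0.034, Ebp 0.045 and 0.043, and Pfkp 0.0017 with DESeq2 size factors. Called on both scales were 177 higher and 467 lower in the model of the 6 libraries, and 289 and 1524 in the parental line only, which was added after seeing the data. Library 33 held 5986857 counts, which limits low genes there.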

Other observations

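Further lists are given beside the shares of all genes, 2.89% rising and 12.5% falling on both scales. Of 15 p53 target genes past the minimum, 4 rose on both scales and none fell: Pmaip1, Trp53inp1, Btg2 and Mdm2, the last with a TMM log2 difference of 0.57. All 15 had a TMM log2 difference above 0, the lowest at 0.027, while the list's median on the spike-in scale was -0.039. Of 27 imprinted genes, 2 rose (Peg10 and Mirg) and 3 fell (Nnat, Gnas and Gab1), close to the shares of all genes. Of 15 Notch and Id genes, 3 rose (Hey1, Id4 and Notch3) and 4 fell, Gadd45g the furthest with a TMM log2 difference of -1.67. Of 9 genes past the minimum in a list for the 2-cell-like state, 1 fell on both scales (Zfp809), also close to the share of all genes. Whether Zfp809 belongs to that state was not tested. Zscan4a, Zscan4c and Zscan4d were called lower on the spike-in scale and not on the TMM scale. The list's median relative to all genes was nonetheless -1.045 on the TMM scale and -1.053 on the spike-in scale. On the spike-in scale 7 of the 9 were called lower. All 9 had a TMM log2 difference below 0, the highest at -0.0794, but in none were the groups without overlap. Zscan4a was at 5.50, 6.17 and 0.440 FPKM in 2i, where library 33 was far below the parental libraries, and at 2.47, 1.51 and 1.68 FPKM in 2i-p5. The Zscan4 genes are near-identical copies, so unique counting leaves their values uncertain.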
